A study of Mus musculus with 11 samples.

Results

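Transcripts of 38 genes of DNA repair and of the DNA damage checkpoint were followed in B16-OVA cells, a mouse melanoma line that carries ovalbumin as a model antigen, after heat shock and after siRNA against the Hippo pathway co-activators YAP and TAZ. The genes were a list named by pathway, whose rule used no measured value but which was drawn up with earlier results of these data known: 13 genes of homologous recombination, 10 of the Fanconi anaemia pathway, 5 of end resection and break sensing, 4 checkpoint kinases, 1 of mismatch repair and 5 of non-homologous end joining. All 38 were among the 54686 entries of the gene table. Of these 38, 37 passed the filter for testing (at least 1 FPKM in at least 2 of 11 libraries), as did 12626 genes in all. Atr, the checkpoint kinase that answers to single-stranded DNA, did not pass.

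As background, double-strand breaks are mended in mammalian cells by 2 main routes. In end joining, the Ku heterodimer caps the ends, the kinase DNA-PK holds them and a ligase complex seals them. In homologous recombination, the ends are cut back to single strands, BRCA1 and BRCA2 load a strand-exchange recombinase, and an undamaged sister copy serves as template, which ties this route to S and G2 phases. The Fanconi anaemia pathway removes crosslinks between strands and hands the resulting break to recombination, mismatch repair corrects replication errors, and the checkpoint kinases stop the cell cycle while damage lasts. Many genes of recombination, of the Fanconi pathway and of the checkpoint are transcribed mainly in dividing cells through E2F factors, whereas end joining works throughout the cell cycle.

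The 4 groups were 3 libraries of cells under YAP/TAZ siRNA with heat, 3 under YAP/TAZ siRNA without heat, 2 under control siRNA with heat (replicates 1 and 3) and 3 under control siRNA without heat. All cells were B16-OVA cells of the C57BL/6J strain. Heat was 45 °C for 1 h, begun 48 h after transfection and followed by 6 h at 37 °C, so every heated value belongs to that 1 recovery time. A replicate 2 of that heated control group was not analysed here. The siRNA was a pool against both factors, so effects of YAP and of TAZ cannot be told apart, and the labels name no second siRNA. The labels do not say whether the replicates came from separate cultures, so the p-values reflect the spread among these libraries alone, and that spread may be technical.

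Both targeted genes were lower under YAP/TAZ siRNA in every library. Yap1 was at 2.61, 2.26 and 2.29 FPKM in heated and 2.75, 3.02 and 2.54 FPKM in unheated YAP/TAZ siRNA cells, against 10.9 and 5.96 FPKM in heated and 7.26, 5.79 and 15.6 FPKM in unheated control siRNA cells. The log2 change of Yap1 was -1.43 ± 0.34 with heat (limma, adjusted p = 0.00593) and -1.38 ± 0.30 without (adjusted p = 0.00445). Wwtr1, which encodes TAZ, was at 1.72, 1.40 and 1.55 FPKM in heated and 1.83, 1.83 and 1.65 FPKM in unheated YAP/TAZ siRNA cells, against 5.50 and 8.47 FPKM in heated and 5.38, 6.28 and 8.20 FPKM in unheated control siRNA cells. Its changes were -1.62 ± 0.17 with heat (adjusted p = 6.15e-05) and -1.45 ± 0.16 without (adjusted p = 6.09e-05). The control siRNA libraries differed among themselves in both genes more than the YAP/TAZ siRNA libraries did. From the steps between low FPKM values, 1 FPKM in a library stood for about 30.4 to 43.9 fragments per kilobase of exon, and the 38 genes had about 59.4 (Fancf) to 7406 (Xrcc5) fragments in a library. Across genes, log2 values of a pair of libraries correlated at 0.977 to 0.984 when both came from 1 group and at 0.900 to 0.959 otherwise. All 7 melanocyte markers looked for were expressed, with 6261 to 8191 FPKM in sum per library, while no fibroblast, macrophage, lymphocyte, endothelial or keratinocyte marker exceeded 4.83 FPKM (Cd68). The 7 macrophage markers summed to 2.83 to 3.42 FPKM in heated and 1.57 to 2.05 FPKM in unheated YAP/TAZ siRNA cells, against 6.29 to 6.73 FPKM in heated and 2.35 to 2.64 FPKM in unheated control siRNA cells. The 7 lymphocyte markers summed to 0.181 to 0.365 FPKM in heated and 0.0437 to 0.239 FPKM in unheated YAP/TAZ siRNA cells, against 1.89 to 1.92 FPKM in heated and 0.125 to 0.317 FPKM in unheated control siRNA cells. The 5 endothelial markers summed to 0.112 to 0.211 FPKM in heated and 0.103 to 0.123 FPKM in unheated YAP/TAZ siRNA cells, against 1.28 to 1.52 FPKM in heated and 0.155 to 0.293 FPKM in unheated control siRNA cells. These 3 sums were thus highest in the 2 heated control siRNA libraries, but few genes carried them. In those cells Cd68 and Lyz2 averaged 4.23 and 2.11 FPKM, Cd79a 1.845 FPKM and Pecam1 0.998 FPKM, while Ptprc, Cd3d and Cdh5 were at 0. Cd14 (0.132 FPKM with heat) and Cd4 (0.0803 FPKM without) had their highest means under YAP/TAZ siRNA. The 8 fibroblast markers (1.02 to 3.16 FPKM) were highest in unheated control siRNA cells, and the 5 keratinocyte markers did not pass 0.0807 FPKM. The heated control siRNA libraries also had the most genes above 0, namely 23173 and 23242, against 20000 to 20365 in unheated control siRNA cells. The numbers were 21534 to 21662 in heated and 20632 to 20914 in unheated YAP/TAZ siRNA cells. The part of these differences in the results was not tested.

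Changes below are differences of mean log2(FPKM + 1) with their standard errors, called where the limma p-value, adjusted over all 12626 genes, was under 0.05. Adding 1 to each value understates the change of genes near 1 FPKM. In these bulk libraries, fewer cells that express a gene and less RNA of it per cell cannot be told apart.

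Heat lowered most of the repair genes under control siRNA and few of them under YAP/TAZ siRNA. In YAP/TAZ siRNA cells, 5 of 37 genes rose with heat and 9 fell, where 18.6% of all tested genes rose, 31.7% fell and 50.3% did either. Their median change was -0.03, against -0.09 for all genes. With the deposited values the list stood near or under these shares in both directions. The 5 that rose were Rad51ap1, Rbbp8, Nbn, Chek1 and Xrcc6, and the 9 that fell were Brca1, Rad54l, Fancf, Fancl, Atm, Msh6, Xrcc4, Prkdc and Lig4. Under control siRNA, 0 of 37 rose and 30 fell, where 12.4% of all genes rose, 36.9% fell and 49.2% did either. The median change was -0.39, against -0.16 for all genes, and single genes lay between -1.07 (Fancl) and 0.08 (Nbn). At an unadjusted limma p under 0.05 the counts were 0 and 31. The 7 that were not called were Brca1, Rad51c, Palb2, Fancm, Rbbp8, Nbn and Xrcc5. These are counts over FPKM as deposited, and scaling by the median of ratios moved the median of all genes under control siRNA from -0.16 to -0.03. With that scaling, 8 rose and 7 fell under YAP/TAZ siRNA (24.2% and 23.4% of all genes), and 2 rose (Nbn and Xrcc5) and 23 fell under control siRNA (19.6% and 24.6% of all genes). With quantile normalization the counts were 13 and 6 under YAP/TAZ siRNA (21.6% and 22.7% of all genes) and 2 and 19 under control siRNA (18.5% and 25.8% of all genes), so that under YAP/TAZ siRNA the share of the list that rose was then above that of all genes. No change that was called with the deposited values turned its sign under either scaling.

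The heat responses under the 2 siRNAs were compared directly as their difference (the response under YAP/TAZ siRNA minus that under control siRNA), in which a positive value means a less negative or a more positive response under YAP/TAZ siRNA. This difference was called positive for 26 of 37 genes and negative for 0, where 24.6% of all genes were positive, 13.4% negative and 37.9% either. At an unadjusted limma p under 0.05 the counts were 27 and 1 (Brca1). The median difference was 0.43, against 0.11 for all genes, and the range ran from -0.46 (Brca1, adjusted p = 0.0541) to 1.10 (Exo1). Of the 37 genes, 19 fell with heat under control siRNA and were not called under YAP/TAZ siRNA, a pattern that 15.2% of all tested genes showed. Chek1, Rad51ap1 and Xrcc6 fell with heat under control siRNA and rose with it under YAP/TAZ siRNA, as did 3.22% of all genes. Atm, Fancf, Fancl, Lig4, Msh6, Prkdc, Rad54l and Xrcc4 fell under both, as did 18.5% of all genes. When single libraries of the groups of 3 were left out, 24 to 25 differences were positive, against 2577 to 3207 of 12543 to 12595 tested genes. Without replicate 1 or 3 of the heated control siRNA cells, 1 library was left there, and fewer were called, also among all genes. The median difference of the list was then 0.45 and 0.47, against 0.11 and 0.12 for all genes.

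**Figure D1:**
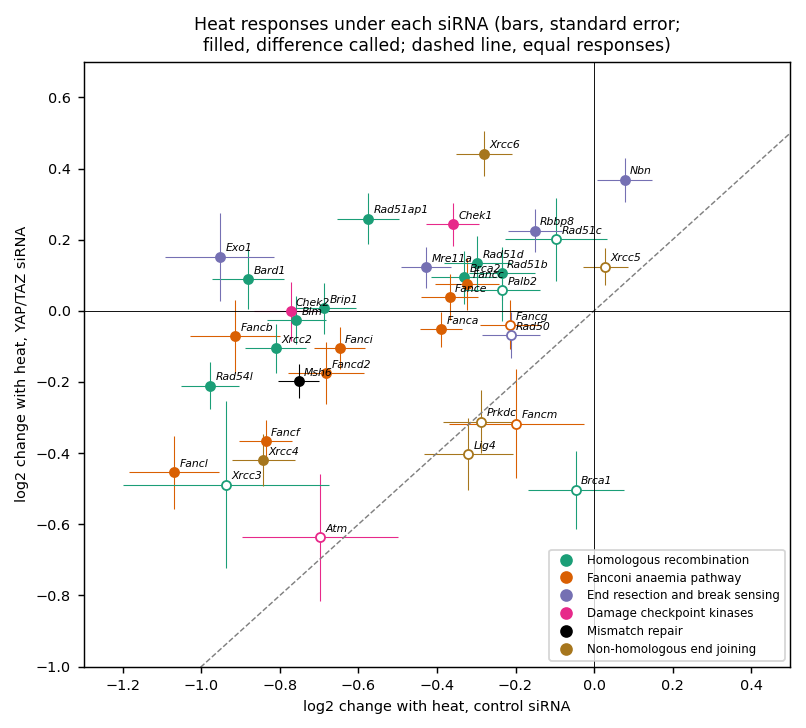
Log2 change with heat of each of the 37 tested genes under YAP/TAZ siRNA (vertical axis) and under control siRNA (horizontal axis), in units of log2(FPKM + 1), with standard errors as bars, colours for the roles and filled symbols where the difference of the responses was called. Most points lie left of 0 and above the dashed line of equal responses, 3 of them (Chek1, Rad51ap1 and Xrcc6) called in opposite directions, and Brca1 lies apart at the lower right.

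YAP/TAZ siRNA and control siRNA were also compared at each condition. With heat, 24 of 37 genes were higher under YAP/TAZ siRNA and 1 (Fanca) was lower, where 36.3% of all genes were higher, 17.9% lower and 54.3% either. The median difference was 0.31, against 0.13 for all genes, and Xrcc5 had the largest value, 0.79. Median-of-ratios scaling gave 19 higher and 3 lower (26.7% and 25% of all genes), and the median of all genes was then 0.02. Without heat, 4 genes were higher under YAP/TAZ siRNA (Brca1, Xrcc5, Prkdc and Lig4) and 17 were lower, where 27.1% of all genes were higher, 21.9% lower and 49% either. The median was -0.21, against 0.02 for all genes, and the values ran from -0.59 (Chek1) to 0.69 (Xrcc5). Bard1, Blm, Brip1, Chek2, Exo1, Fancb, Fanci, Rad51ap1, Rad54l, Xrcc2 and Xrcc6, 11 in all, were lower under YAP/TAZ siRNA without heat and higher with heat, a pattern of 3.69% of all genes. Chek1, Fancd2, Mre11a, Msh6 and Nbn were lower without heat and not called with heat, as were 10.6% of all genes. Lig4, Prkdc and Xrcc5 were higher under YAP/TAZ siRNA in both conditions, as were 18.7% of all genes.

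The comparisons share libraries, so their values stand side by side and are not independent. In all, 34 of 37 genes were called in at least 1 of the 5 comparisons. Fancm, Palb2 and Rad51c were called in none.

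**Figure D2:**
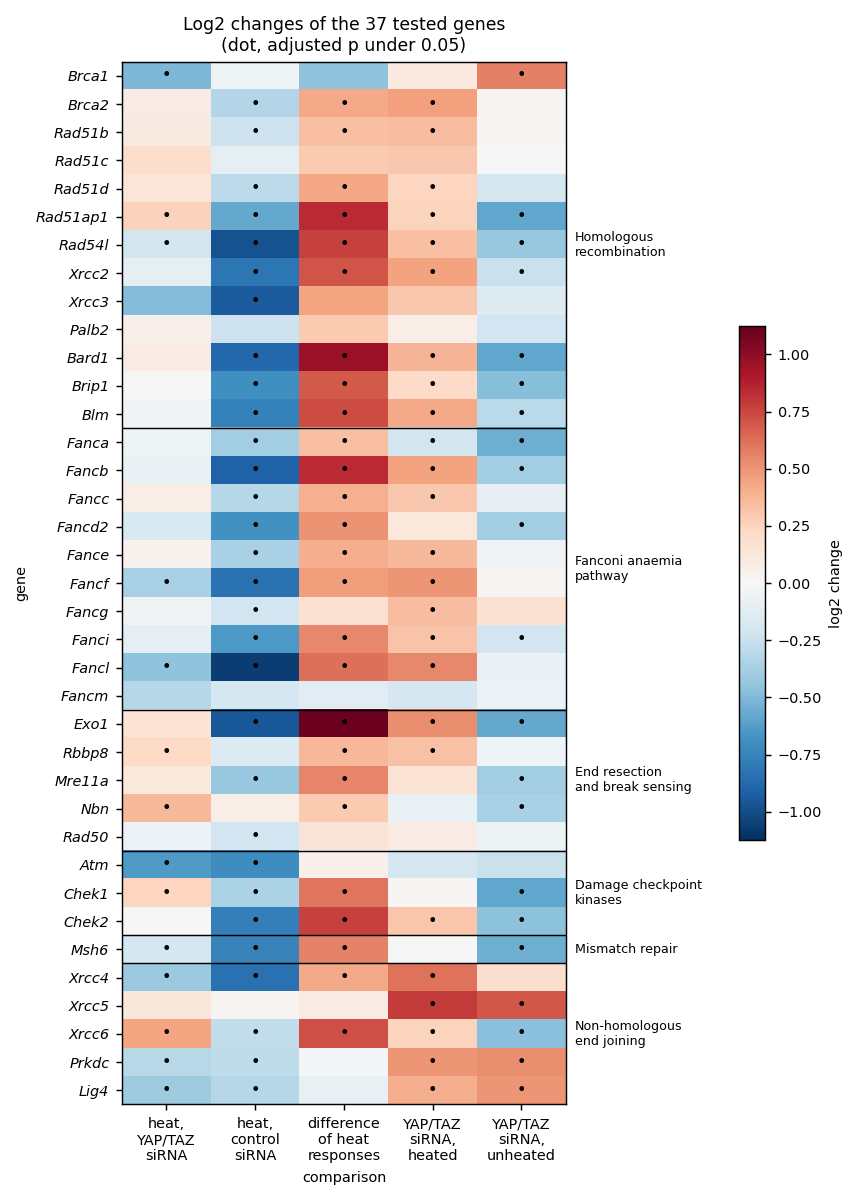
Log2 changes (colour, in log2(FPKM + 1)) of the 37 tested genes (rows, by role) in the 5 comparisons (columns), with a dot where the adjusted p was under 0.05. The second column, heat under control siRNA, is blue and dotted for 30 genes, the third, the difference of the heat responses, red and dotted for 26, and all 5 end-joining genes are red and dotted in the fourth, YAP/TAZ siRNA with heat.

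Sequence upstream of the genes was also described, and its part in their changes was not tested. RefSeq promoter windows (GRCm38.p6) were matched by symbol for 30 of the 38 genes, and the 250 bases before the start site were searched on both strands for 5 motifs. A canonical E2F site (TTTCCCGC, TTTGGCGC, TTTCGCGC or TTTGCCGC) stood in 5 of 30 windows (16.7%), those of Bard1, Brca2, Chek2, Fancg and Xrcc6, and in 1.91% of 27025 windows of all genes. A CCAAT box (CCAAT, the motif of NF-Y) stood in 18 of 30 (60%), against 34.5% of all windows. Of the 13 windows of genes called lower under YAP/TAZ siRNA without heat, 3 held an E2F site and 9 a CCAAT box. Of the other 17 windows, 2 and 9 did. Of the 24 windows of genes that fell with heat under control siRNA, 5 and 15 did. The cell cycle homology region core (TTTGAA) stood in 1 of 30 (3.33%, Bard1), against 16.3%, and the TEAD motif (GGAATG), to which YAP and TAZ are recruited, in 2 of 30 (6.67%, Fancc and Fancm), against 12.6%. A heat shock element, as 3 alternating GAA and TTC units with spacers of 2 bases, stood in 0 of 30, against 0.4%. Matches of different motifs did not overlap in these 30 windows, which had a median GC content of 58.6%, against 52% for all windows. A match describes letters, not binding, and a window without one says nothing of the factor. The stretches that hold the E2F and CCAAT matches are shown for 9 of the genes whose values in every library follow, and for Bard1, Brca2 and Fancg, which were added because they hold an E2F site. Each is read 5′ to 3′ on the strand of the gene, with the matches in capitals (ATTGG and GCGGGAAA are CCAAT and TTTCCCGC on the other strand) and 15 bases on either side.
Bard1, chr1:71103159-71103196, minus strand: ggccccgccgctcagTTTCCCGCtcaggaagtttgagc
Brca2, chr5:150522438-150522475, plus strand: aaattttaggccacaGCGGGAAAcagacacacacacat
Chek2, chr5:110839782-110839976, plus strand: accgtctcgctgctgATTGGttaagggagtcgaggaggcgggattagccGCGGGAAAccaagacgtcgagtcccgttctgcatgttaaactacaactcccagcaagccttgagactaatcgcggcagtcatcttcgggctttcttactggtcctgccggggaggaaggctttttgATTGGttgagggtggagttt
Fancg, chr4:43010331-43010368, minus strand: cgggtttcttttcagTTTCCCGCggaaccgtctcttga
Xrcc6, chr15:82016308-82016345, plus strand: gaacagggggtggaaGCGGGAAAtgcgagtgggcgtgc
Brca1, chr11:101552022-101552056, minus strand: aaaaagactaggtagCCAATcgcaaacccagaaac
Rad51ap1, chr6:126939604-126939832, minus strand: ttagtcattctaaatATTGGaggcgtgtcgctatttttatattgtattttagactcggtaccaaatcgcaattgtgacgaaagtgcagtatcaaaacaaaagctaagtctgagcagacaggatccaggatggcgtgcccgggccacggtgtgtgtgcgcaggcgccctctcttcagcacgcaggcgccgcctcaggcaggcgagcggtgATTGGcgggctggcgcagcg
Fanca, chr8:123318580-123318641, minus strand: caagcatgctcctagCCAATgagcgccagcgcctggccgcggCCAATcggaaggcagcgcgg
Fancf, chr7:51862279-51862400, minus strand: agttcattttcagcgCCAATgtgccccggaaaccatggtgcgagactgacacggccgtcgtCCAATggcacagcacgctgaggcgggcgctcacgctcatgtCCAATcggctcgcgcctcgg
Mre11a, chr9:14784566-14784635, plus strand: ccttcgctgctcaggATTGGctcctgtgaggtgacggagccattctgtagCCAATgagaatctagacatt
Msh6, chr17:87975001-87975035, plus strand: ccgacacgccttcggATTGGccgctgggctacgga
Xrcc5, chr1:72307237-72307271, plus strand: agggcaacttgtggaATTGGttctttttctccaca

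For the counts of each role below, the shares of all genes were these. With heat, 18.6% rose and 31.7% fell under YAP/TAZ siRNA, and 12.4% rose and 36.9% fell under control siRNA. The difference of the heat responses was positive for 24.6% and negative for 13.4%. Under YAP/TAZ siRNA against control siRNA, 36.3% were higher and 17.9% lower with heat, and 27.1% and 21.9% without. Homologous recombination was the largest group, with 13 genes. With heat, 1 rose and 2 fell under YAP/TAZ siRNA, while 0 rose and 10 fell under control siRNA, and the difference of the responses was called for 9, all positive. The split with heat under YAP/TAZ siRNA depended on the scaling. It was 2 up and 1 down under median-of-ratios scaling and 6 up and 1 down under quantile normalization. Under control siRNA, 8 fell with heat under median-of-ratios scaling and 7 under quantile normalization. Median-of-ratios scaling gave 8 positive differences and 1 negative (Brca1). Under YAP/TAZ siRNA against control siRNA, 9 were higher and 0 lower with heat, and 1 was higher and 6 were lower without heat. Rad54l, a DNA translocase that helps the recombinase invade its template, was at 5.06, 5.47 and 4.81 FPKM in heated and 5.73, 6.43 and 6.05 FPKM in unheated YAP/TAZ siRNA cells, against 3.57 and 4.10 FPKM in heated and 8.62, 8.72 and 8.22 FPKM in unheated control siRNA cells. The 4 groups of Rad54l did not overlap, with the heated control siRNA libraries lowest and the unheated ones highest. Its change with heat was -0.21 ± 0.07 under YAP/TAZ siRNA (adjusted p = 0.0247) and -0.98 ± 0.07 under control siRNA (adjusted p = 6.62e-06), and the difference of these responses was 0.77 ± 0.10 (adjusted p = 0.000404). Xrcc2, a paralogue of the recombinase, was at 2.67, 2.60 and 2.16 FPKM in heated and 2.88, 2.68 and 2.63 FPKM in unheated YAP/TAZ siRNA cells, against 1.47 and 1.59 FPKM in heated and 3.58, 3.35 and 3.40 FPKM in unheated control siRNA cells. Only the heated and unheated YAP/TAZ siRNA libraries overlapped among the compared groups of Xrcc2, and the change with heat was -0.11 ± 0.07 there (not called) and -0.81 ± 0.08 under control siRNA (adjusted p = 2.74e-05). Rad51ap1, a partner that stimulates strand invasion, was at 11.2, 10.8 and 12.2 FPKM in heated and 9.15, 8.98 and 9.89 FPKM in unheated YAP/TAZ siRNA cells, against 8.54 and 10.3 FPKM in heated and 14.4, 14.7 and 14.3 FPKM in unheated control siRNA cells. It stood highest in unheated control siRNA cells, and the heated libraries of YAP/TAZ siRNA lay above both the unheated ones and the heated control siRNA ones. The change with heat was 0.26 ± 0.07 under YAP/TAZ siRNA (adjusted p = 0.0137) and -0.58 ± 0.08 under control siRNA (adjusted p = 0.00028).

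Brca1, whose product promotes resection and recruits BRCA2 through PALB2, was highest in another group than the genes above. Brca1 was at 13.03, 13.8 and 12.97 FPKM in heated and 15.97, 21.3 and 20.8 FPKM in unheated YAP/TAZ siRNA cells, against 12.8 and 11.6 FPKM in heated and 12.9, 11.3 and 13.9 FPKM in unheated control siRNA cells. The 3 unheated YAP/TAZ siRNA libraries stood above all others, which lay within 11.3 to 13.9 FPKM. Brca1 was 0.57 ± 0.11 higher under YAP/TAZ siRNA without heat (adjusted p = 0.00201) and fell with heat under that siRNA, with a change of -0.50 ± 0.11 (adjusted p = 0.00458). The difference of the heat responses was -0.46 ± 0.16 (adjusted p = 0.0541). It was not called with the deposited values, but it was with median-of-ratios scaling (-0.52), with quantile normalization (-0.59) and among the genes above 5 FPKM. Bard1 encodes the obligate partner of BRCA1 in its ubiquitin ligase, and averaged 3.68 ± 0.375 FPKM in heated and 3.40 ± 0.285 FPKM in unheated YAP/TAZ siRNA cells, against 2.58 ± 0.256 FPKM in heated and 5.59 ± 0.393 FPKM in unheated control siRNA cells (SD). Bard1 was -0.59 ± 0.08 under YAP/TAZ siRNA without heat (adjusted p = 0.000325), the opposite sign to Brca1. Its difference of the heat responses was 0.97 ± 0.12 (adjusted p = 0.000406), the largest of the 13 recombination genes. Brca2, which loads the recombinase, averaged 2.53 ± 0.266 FPKM in heated and 2.30 ± 0.205 FPKM in unheated YAP/TAZ siRNA cells, against 1.56 ± 0.0346 FPKM in heated and 2.23 ± 0.161 FPKM in unheated control siRNA cells (SD). Palb2, the link between BRCA1 and BRCA2, averaged 1.26 and 1.17 FPKM in heated and unheated YAP/TAZ siRNA cells, against 1.14 and 1.53 FPKM in heated and unheated control siRNA cells, and none of its changes was called.

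The helicases Brip1, which binds BRCA1, and Blm, which dissolves crossed-over strands, had the order of groups of Rad54l under control siRNA, with the heated mean lowest and the unheated one highest of the 4. Brip1 averaged 3.45 ± 0.229 FPKM in heated and 3.43 ± 0.246 FPKM in unheated YAP/TAZ siRNA cells, against 2.85 ± 0.326 FPKM in heated and 5.18 ± 0.282 FPKM in unheated control siRNA cells (SD), and Blm averaged 4.12 ± 0.212 FPKM in heated and 4.22 ± 0.328 FPKM in unheated YAP/TAZ siRNA cells, against 2.81 ± 0.199 FPKM in heated and 5.45 ± 0.329 FPKM in unheated control siRNA cells (SD). Their differences of the heat responses were 0.69 ± 0.11 for Brip1 (adjusted p = 0.00121) and 0.73 ± 0.10 for Blm (adjusted p = 0.00062). Rad51b, Rad51c, Rad51d and Xrcc3 are the other paralogues of the recombinase. Rad51b averaged 1.25 and 1.09 FPKM in heated and unheated YAP/TAZ siRNA cells, against 0.762 and 1.08 FPKM in heated and unheated control siRNA cells. Rad51d averaged 8.01 and 7.24 FPKM in heated and unheated YAP/TAZ siRNA cells, against 6.61 and 8.35 FPKM in heated and unheated control siRNA cells. Both fell with heat under control siRNA, with changes of -0.23 ± 0.08 for Rad51b and -0.30 ± 0.09 for Rad51d. Xrcc3 ranged from 2.85 to 10.2 FPKM over the 11 libraries and fell with a change of -0.94 ± 0.26 with heat under control siRNA (adjusted p = 0.0148), while its -0.49 ± 0.23 under YAP/TAZ siRNA was not called (adjusted p = 0.112). Rad51c averaged 2.99 and 2.45 FPKM in heated and unheated YAP/TAZ siRNA cells, against 2.24 and 2.44 FPKM in heated and unheated control siRNA cells, and none of its changes was called.

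Several calls in this group needed all libraries. For heat under control siRNA, Rad51d (-0.23) and Xrcc3 (-0.60) were not called without replicate 3 of the heated control siRNA cells, nor was Brca2 (-0.32) without replicate 1, and Rad51b was not called when any 1 of 8 libraries was left out (-0.26 to -0.20). In YAP/TAZ siRNA cells, the rise of Rad51ap1 was 0.21 and not called without replicate 3 of the heated cells, and the fall of Rad54l was not called when any 1 of 3 libraries was left out (-0.20 to -0.17). Of the differences of the heat responses, those of Brca2 (0.41, without replicate 1 of the heated control siRNA cells), Rad51d (0.37, without replicate 3) and Rad51b (0.29 to 0.37, 9 libraries) were lost. Among the values under YAP/TAZ siRNA with heat, Rad51ap1 came to 0.13 and Bard1 to 0.31 without replicate 1 of the heated control siRNA cells, Brip1 ranged from 0.13 to 0.22 (8 libraries), Rad51d from 0.18 to 0.31 (6 libraries) and Rad51b was 0.33 without replicate 3, and none of these was called. Those of Rad51ap1, Rad51d and Brip1 were also not called under either other scaling (0.11 to 0.15). For heat under control siRNA, Rad51b and Rad51d were not called under either other scaling, nor was Xrcc3 under quantile normalization.

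**Figure D3:**
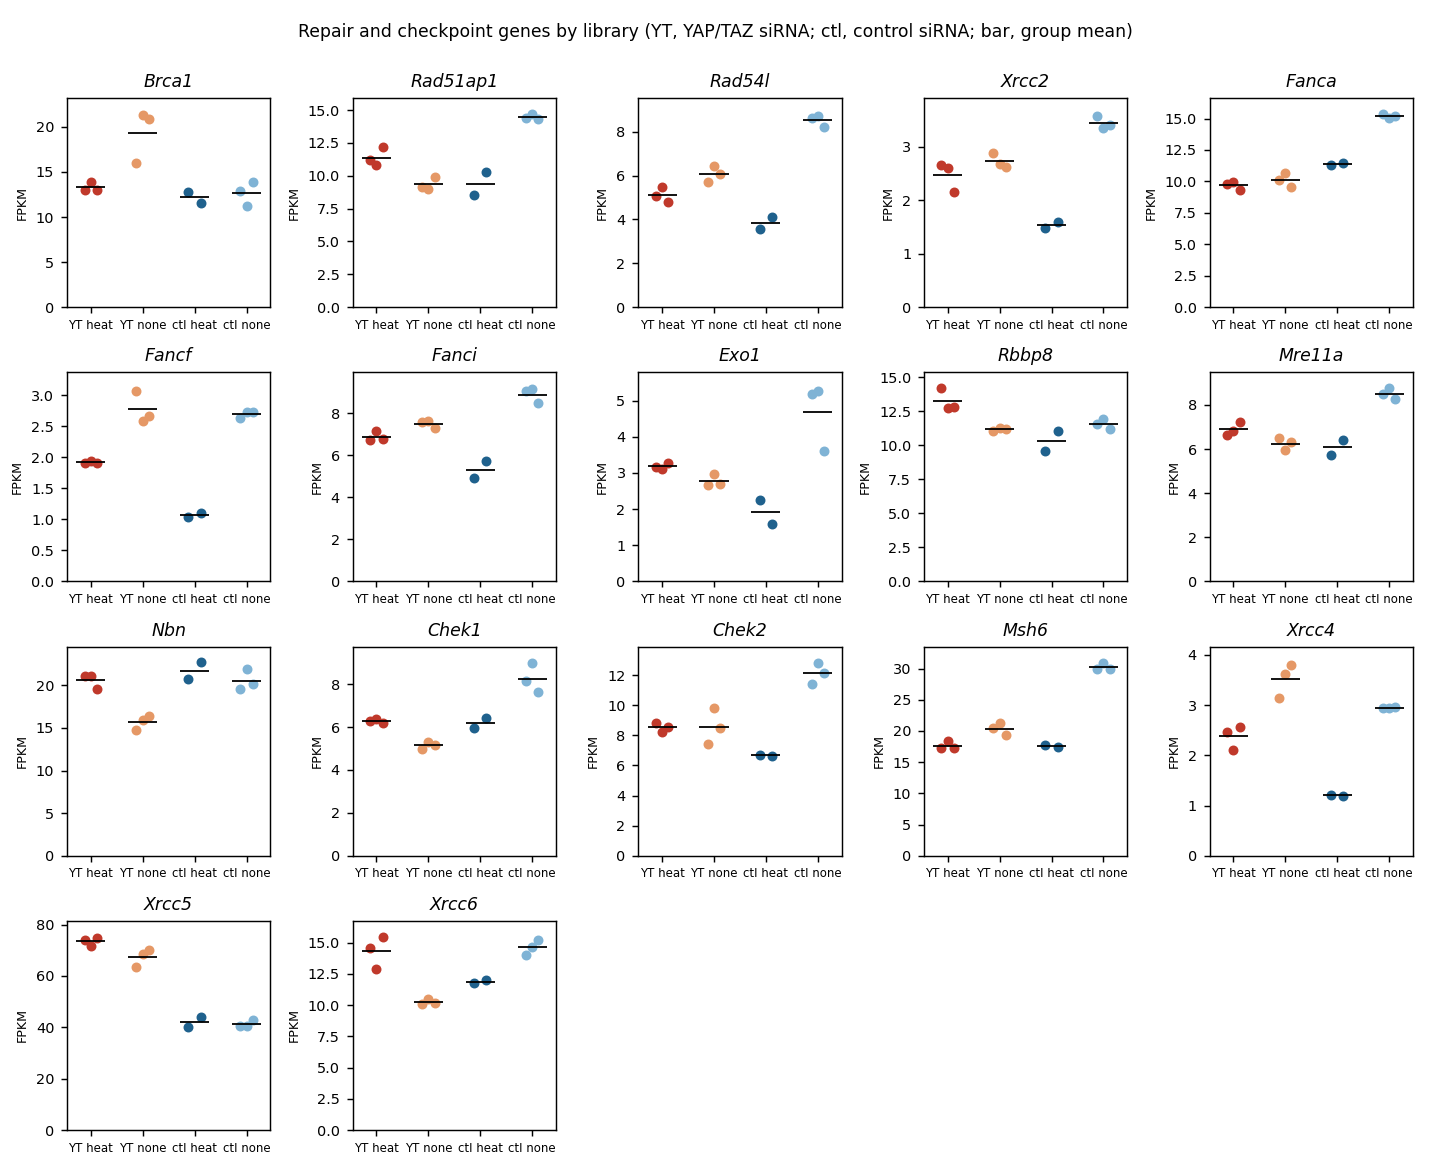
FPKM (vertical axis, from 0) of 17 genes in each of the 11 libraries (points) with the group mean (bar), for heated and unheated YAP/TAZ siRNA cells and then heated and unheated control siRNA cells. The unheated control siRNA libraries stand highest and the heated ones lowest in Rad54l, Xrcc2, Fanci, Exo1 and Chek2, while Brca1 is highest in unheated YAP/TAZ siRNA cells and Xrcc5 is high in all 6 YAP/TAZ siRNA libraries.

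Of the 10 Fanconi genes, 0 rose and 2 fell with heat under YAP/TAZ siRNA, while 0 rose and 9 fell under control siRNA. The difference of the responses was called positive for 8. Quantile normalization gave 2 up and 1 down with heat under YAP/TAZ siRNA. Under control siRNA, 8 fell with heat under median-of-ratios scaling and 7 under quantile normalization. Under YAP/TAZ siRNA against control siRNA, 7 were higher and 1 was lower with heat (36.3% and 17.9% of all genes). Without heat, 0 were higher and 4 lower (27.1% and 21.9% of all genes). Fanci, 1 of the 2 subunits of the clamp that the pathway ubiquitinates on damaged DNA, was at 6.71, 7.17 and 6.78 FPKM in heated and 7.57, 7.61 and 7.27 FPKM in unheated YAP/TAZ siRNA cells, against 4.91 and 5.72 FPKM in heated and 9.04, 9.14 and 8.46 FPKM in unheated control siRNA cells. Its 4 groups did not overlap, and the change with heat was -0.11 ± 0.06 under YAP/TAZ siRNA (not called) and -0.65 ± 0.07 under control siRNA (adjusted p = 4.28e-05). Fancd2, its partner in the clamp, averaged 5.83 ± 0.593 FPKM in heated and 6.71 ± 0.800 FPKM in unheated YAP/TAZ siRNA cells, against 5.28 ± 0.0138 FPKM in heated and 9.07 ± 0.318 FPKM in unheated control siRNA cells (SD), with a change of -0.68 ± 0.10 under heat with control siRNA (adjusted p = 0.00035) and -0.17 ± 0.09 with YAP/TAZ siRNA (not called).

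The core complex, which places the ubiquitin, held genes of several patterns. Fancf, an adaptor of the complex, was at 1.91, 1.95 and 1.90 FPKM in heated and 3.07, 2.58 and 2.67 FPKM in unheated YAP/TAZ siRNA cells, against 1.03 and 1.11 FPKM in heated and 2.63, 2.73 and 2.72 FPKM in unheated control siRNA cells. Both heated groups of Fancf lay below both unheated ones, and the heated control siRNA libraries were lowest. It fell with a change of -0.37 ± 0.06 under YAP/TAZ siRNA (adjusted p = 0.00109) and -0.84 ± 0.07 under control siRNA (adjusted p = 1.04e-05), with a difference of 0.47 ± 0.09 (adjusted p = 0.00361). Fancl, the ubiquitin ligase subunit, averaged 2.39 ± 0.412 FPKM in heated and 3.63 ± 0.370 FPKM in unheated YAP/TAZ siRNA cells, against 1.32 ± 0.158 FPKM in heated and 3.87 ± 0.329 FPKM in unheated control siRNA cells (SD), and its change of -1.07 ± 0.11 under control siRNA was the lowest of the 37 genes (adjusted p = 5.83e-05). Fanca, the subunit that brings the complex to the nucleus, was at 9.82, 9.97 and 9.32 FPKM in heated and 10.1, 10.6 and 9.53 FPKM in unheated YAP/TAZ siRNA cells, against 11.3 and 11.5 FPKM in heated and 15.4, 15.1 and 15.2 FPKM in unheated control siRNA cells. Of the 37 listed genes, Fanca alone was called lower under YAP/TAZ siRNA in both conditions, with -0.21 ± 0.05 with heat (adjusted p = 0.00889) and -0.55 ± 0.05 without (adjusted p = 1.70e-05).

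Fancb, Fancc, Fance and Fancg are further core subunits. Fancb averaged 1.56 ± 0.134 FPKM in heated and 1.69 ± 0.175 FPKM in unheated YAP/TAZ siRNA cells, against 0.875 ± 0.0908 FPKM in heated and 2.55 ± 0.478 FPKM in unheated control siRNA cells (SD), below 1 FPKM in both heated control siRNA libraries, and its difference of the heat responses was 0.84 ± 0.15 (adjusted p = 0.0028). Fancc averaged 1.14 and 1.04 FPKM in heated and unheated YAP/TAZ siRNA cells, against 0.735 and 1.17 FPKM in heated and unheated control siRNA cells, and Fance averaged 5.45 and 5.28 FPKM in heated and unheated YAP/TAZ siRNA cells, against 3.998 and 5.43 FPKM in heated and unheated control siRNA cells. Both fell with heat under control siRNA alone by the test, with differences of the responses of 0.40 ± 0.11 and 0.41 ± 0.10. Fancg averaged 5.06 and 5.22 FPKM in heated and unheated YAP/TAZ siRNA cells, against 3.76 and 4.53 FPKM in heated and unheated control siRNA cells, and its difference of 0.17 ± 0.10 was not called (adjusted p = 0.218). Fancm, the translocase that recruits the core complex to DNA, ranged from 1.83 to 3.87 FPKM, and none of its changes was called.

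Among the Fanconi calls, Fancg with heat under control siRNA was lost when any 1 of 8 libraries was left out (-0.23 to -0.16) and Fancc without replicate 3 of the heated control siRNA cells (-0.27). The differences of the heat responses of Fancd2 (0.505), Fance (0.31) and Fancl (0.55) were not called without replicate 1 of those cells, nor was that of Fancc (0.35) without replicate 3. With heat, the values under YAP/TAZ siRNA of Fancb (0.40, without replicate 1), Fancc (0.26, without replicate 3) and Fanca (-0.20, without replicate 3) were lost likewise. Fancg with heat under control siRNA was -0.08 and -0.01 under the other scalings, and neither was called. Under quantile normalization, the fall of Fance with heat under control siRNA was not called, nor was that of Fancl under YAP/TAZ siRNA.

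End resection and break sensing held 5 genes. Exo1, the exonuclease of long-range resection, had the largest difference of the heat responses of all 37 genes. It was at 3.15, 3.11 and 3.28 FPKM in heated and 2.66, 2.96 and 2.68 FPKM in unheated YAP/TAZ siRNA cells, against 2.25 and 1.60 FPKM in heated and 5.17, 5.26 and 3.60 FPKM in unheated control siRNA cells. Its 4 groups did not overlap, but replicate 3 of the unheated control siRNA cells stood well below the other 2. The change with heat was 0.15 ± 0.12 under YAP/TAZ siRNA (not called) and -0.95 ± 0.14 under control siRNA (adjusted p = 0.000403), and the difference was 1.10 ± 0.19 (adjusted p = 0.00183). Rbbp8, which encodes the cofactor that starts resection, was at 14.2, 12.7 and 12.8 FPKM in heated and 11.02, 11.3 and 11.2 FPKM in unheated YAP/TAZ siRNA cells, against 9.61 and 11.1 FPKM in heated and 11.6, 11.9 and 11.2 FPKM in unheated control siRNA cells. The heated YAP/TAZ siRNA libraries stood above all the others. Rbbp8 rose with heat under YAP/TAZ siRNA by 0.23 ± 0.06 (adjusted p = 0.0135), and under control siRNA its -0.15 ± 0.07 was not called.

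Mre11a, Rad50 and Nbn encode the nuclease, the ATPase and the adaptor of the complex that senses breaks and recruits the kinase ATM, and their transcripts were not called alike. Mre11a was at 6.65, 6.80 and 7.22 FPKM in heated and 6.48, 5.95 and 6.33 FPKM in unheated YAP/TAZ siRNA cells, against 5.72 and 6.43 FPKM in heated and 8.51, 8.77 and 8.25 FPKM in unheated control siRNA cells. The unheated control siRNA libraries stood above all the others. Mre11a fell with heat under control siRNA with a change of -0.43 ± 0.06 (adjusted p = 0.000457) and was -0.39 ± 0.06 under YAP/TAZ siRNA without heat (adjusted p = 0.000384). Nbn was at 21.1, 21.1 and 19.6 FPKM in heated and 14.8, 15.95 and 16.4 FPKM in unheated YAP/TAZ siRNA cells, against 20.7 and 22.7 FPKM in heated and 19.6, 21.9 and 20.2 FPKM in unheated control siRNA cells. The 3 unheated YAP/TAZ siRNA libraries were the lowest, with -0.36 ± 0.06 against unheated control siRNA (adjusted p = 0.000973), and Nbn rose by 0.37 ± 0.06 with heat under that siRNA (adjusted p = 0.00119). Rad50 averaged 18.8 and 19.7 FPKM in heated and unheated YAP/TAZ siRNA cells, against 17.6 and 20.5 FPKM in heated and unheated control siRNA cells and fell with heat under control siRNA with a change of -0.21 ± 0.07 (adjusted p = 0.0381).

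Over the 5 genes, 2 rose and 0 fell with heat under YAP/TAZ siRNA, 0 rose and 3 fell under control siRNA, and 4 differences of the responses were called positive. The siRNA comparison gave 2 higher (40%, near the 36.3% of all genes) and 0 lower with heat, and 0 were higher and 3 lower without. Under both other scalings, 1 rose and 2 fell with heat under control siRNA, and 2 were higher and 1 lower under YAP/TAZ siRNA with heat. Nbn moved with the scaling: with heat under control siRNA it was called at 0.24 and 0.22 under median-of-ratios scaling and quantile normalization, and its difference of the responses was then 0.23 and 0.19 and not called. That difference was also lost when any 1 of 7 libraries was left out (0.23 to 0.30). Without replicate 1 of the heated YAP/TAZ siRNA cells the rise of Rbbp8 was 0.18, and without replicate 1 of the heated control siRNA cells its difference was 0.28, neither called. Exo1 under YAP/TAZ siRNA with heat (0.53) was 0.365 and not called without replicate 3 of the heated control siRNA cells. Rad50 with heat under control siRNA was lost when any 1 of 5 libraries was left out (-0.26 to -0.15) and under both other scalings (-0.05 and -0.06).

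Of the 4 checkpoint kinase genes, Chek1 and Chek2 encode the effector kinases that act below ATR and ATM. Chek1 was at 6.27, 6.39 and 6.17 FPKM in heated and 4.97, 5.30 and 5.18 FPKM in unheated YAP/TAZ siRNA cells, against 5.96 and 6.44 FPKM in heated and 8.13, 8.98 and 7.64 FPKM in unheated control siRNA cells. The unheated YAP/TAZ siRNA libraries were lowest and the unheated control siRNA ones highest, while both heated groups overlapped in between. Chek1 rose with heat under YAP/TAZ siRNA by 0.24 ± 0.06 (adjusted p = 0.0089) and fell under control siRNA with a change of -0.36 ± 0.07 (adjusted p = 0.00186), with a difference of 0.60 ± 0.09 (adjusted p = 0.00102). Without heat it was -0.59 ± 0.06 under YAP/TAZ siRNA (adjusted p = 4.55e-05), the lowest value of the 37 genes in that comparison. Chek2 was at 8.83, 8.20 and 8.55 FPKM in heated and 7.43, 9.79 and 8.51 FPKM in unheated YAP/TAZ siRNA cells, against 6.71 and 6.63 FPKM in heated and 11.4, 12.8 and 12.1 FPKM in unheated control siRNA cells. Heated and unheated YAP/TAZ siRNA libraries overlapped in Chek2, with a change of -0.0015 ± 0.08, whereas under control siRNA it fell with a change of -0.77 ± 0.09 (adjusted p = 0.000125).

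Atm, the kinase that answers to double-strand breaks, fell with heat under both siRNAs. It averaged 3.40 ± 0.799 FPKM in heated and 5.88 ± 1.43 FPKM in unheated YAP/TAZ siRNA cells, against 3.96 ± 0.0975 FPKM in heated and 7.08 ± 1.04 FPKM in unheated control siRNA cells (SD). The change was -0.64 ± 0.18 under YAP/TAZ siRNA (adjusted p = 0.0151), where the libraries of the 2 groups overlapped, and -0.70 ± 0.20 under control siRNA (adjusted p = 0.0161), where they did not. Without single libraries the change was -0.54 to -0.52 (3 libraries) under YAP/TAZ siRNA and -0.72 and -0.68 (either heated library) under control siRNA, and was not called. With quantile normalization it was -0.49 under control siRNA and not called, as was the fall of Chek1 (-0.16). Atr was at 0.688 to 1.06 FPKM over the 11 libraries, and in a fit with no filter its 5 values lay between -0.11 and 0.05, none called. Chek2 under YAP/TAZ siRNA with heat (0.31 ± 0.09) was not called when any 1 of 3 libraries was left out (0.29 to 0.32), nor under the other scalings (0.19 and 0.21). Of the 3 tested kinases, 1 rose and 1 fell with heat under YAP/TAZ siRNA, 0 rose and 3 fell under control siRNA, and 2 differences were positive. The siRNA comparison gave 1 higher (33.3%, near the 36.3% of all genes) and 0 lower with heat, and 0 were higher and 2 lower without.

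Msh6, which recognises base mismatches with its MutS partner, was the 1 mismatch repair gene. It was at 17.2, 18.4 and 17.2 FPKM in heated and 20.5, 21.2 and 19.3 FPKM in unheated YAP/TAZ siRNA cells, against 17.7 and 17.4 FPKM in heated and 30.00, 30.9 and 29.9 FPKM in unheated control siRNA cells. The unheated control siRNA libraries stood above every other library, none of which passed 21.2 FPKM, and both heated groups overlapped. Msh6 fell with heat with a change of -0.20 ± 0.05 under YAP/TAZ siRNA (adjusted p = 0.00707) and with a change of -0.75 ± 0.05 under control siRNA (adjusted p = 4.52e-06), with a difference of 0.55 ± 0.07 (adjusted p = 0.000394). Under YAP/TAZ siRNA it was -0.55 ± 0.05 without heat (adjusted p = 1.40e-05) and 0.004 ± 0.05 with heat (not called). Under median-of-ratios scaling, the fall with heat under YAP/TAZ siRNA was -0.10 and not called, and the value with heat was -0.13 and called.

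The end-joining genes were mostly higher under YAP/TAZ siRNA. All 5 genes were higher under YAP/TAZ siRNA with heat (36.3% of all genes), and 4 of 5 under either other scaling. Without heat 3 were higher and 1 (Xrcc6) was lower, where 27.1% of all genes were higher and 21.9% lower. Xrcc5 and Xrcc6 encode the larger and the smaller subunit of Ku. Xrcc5 was at 73.8, 71.7 and 74.9 FPKM in heated and 63.6, 68.5 and 70.2 FPKM in unheated YAP/TAZ siRNA cells, against 40.3 and 43.9 FPKM in heated and 40.4, 40.5 and 42.8 FPKM in unheated control siRNA cells. All 6 YAP/TAZ siRNA libraries stood above all 5 control siRNA ones, by 0.79 ± 0.06 with heat (adjusted p = 5.92e-06) and 0.69 ± 0.05 without (adjusted p = 5.93e-06), and heat changed Xrcc5 under neither siRNA by the test. Xrcc6 was at 14.6, 12.9 and 15.5 FPKM in heated and 10.1, 10.5 and 10.2 FPKM in unheated YAP/TAZ siRNA cells, against 11.7 and 12.01 FPKM in heated and 14.00, 14.7 and 15.2 FPKM in unheated control siRNA cells. Its unheated YAP/TAZ siRNA libraries were the lowest of all. Xrcc6 was 0.25 ± 0.07 under YAP/TAZ siRNA with heat (adjusted p = 0.0146) and -0.47 ± 0.06 without (adjusted p = 0.000235), so the transcripts of the 2 Ku subunits were called in the same direction with heat and in opposite directions without it. With heat, Xrcc6 rose by 0.44 ± 0.06 under YAP/TAZ siRNA (adjusted p = 0.000534) and fell with a change of -0.28 ± 0.07 under control siRNA (adjusted p = 0.0092).

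Xrcc4 and Lig4 encode the ligase complex and Prkdc the catalytic subunit of DNA-PK. Xrcc4 was at 2.47, 2.11 and 2.56 FPKM in heated and 3.14, 3.62 and 3.79 FPKM in unheated YAP/TAZ siRNA cells, against 1.21 and 1.19 FPKM in heated and 2.95, 2.94 and 2.96 FPKM in unheated control siRNA cells. Both heated groups of Xrcc4 lay below both unheated ones, with a change of -0.42 ± 0.07 under YAP/TAZ siRNA (adjusted p = 0.00139) and -0.84 ± 0.08 under control siRNA (adjusted p = 3.01e-05). Prkdc averaged 2.92 ± 0.312 FPKM in heated and 3.87 ± 0.418 FPKM in unheated YAP/TAZ siRNA cells, against 1.77 ± 0.142 FPKM in heated and 2.39 ± 0.213 FPKM in unheated control siRNA cells (SD). Lig4 averaged 5.80 ± 0.932 FPKM in heated and 7.96 ± 0.822 FPKM in unheated YAP/TAZ siRNA cells, against 4.07 ± 0.0157 FPKM in heated and 5.34 ± 0.224 FPKM in unheated control siRNA cells (SD). Without heat, Prkdc was 0.52 ± 0.09 and Lig4 0.50 ± 0.10 higher under YAP/TAZ siRNA (adjusted p = 0.000926 and 0.00289). Both fell with heat under both siRNAs, and neither difference of the responses was called (-0.03 ± 0.13 and -0.08 ± 0.15). Of the 5 end-joining genes, 1 rose and 3 fell with heat under YAP/TAZ siRNA, 0 rose and 4 fell under control siRNA, and 2 differences (Xrcc4 and Xrcc6) were positive. Under both other scalings, 1 rose (Xrcc5) and 1 fell (Xrcc4) with heat under control siRNA. Median-of-ratios scaling gave 2 up and 3 down under YAP/TAZ siRNA, and quantile normalization turned the difference of Xrcc5 to a called -0.23. The median difference of these 5 was 0.10, close to the 0.11 of all genes, where the recombination and Fanconi genes had medians of 0.45 and 0.44.

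Leaving out single libraries ended several end-joining calls. With heat under control siRNA, Xrcc6 was -0.26 without replicate 1 of the heated cells, Prkdc -0.34 to -0.23 (5 libraries) and Lig4 -0.35 to -0.30 (7 libraries), and none was called. The fall of Prkdc with heat under YAP/TAZ siRNA was likewise lost (-0.28 to -0.25, 3 libraries). With heat, the values under YAP/TAZ siRNA of Xrcc6 (0.23 and 0.26) and Lig4 (0.41 and 0.42) were not called when either heated control siRNA library was left out. Under the other scalings, Xrcc6 (-0.12 and -0.11), Prkdc (-0.18 and -0.19) and Lig4 (-0.18 and -0.11) were not called for heat under control siRNA, nor was Xrcc6 under YAP/TAZ siRNA with heat (0.12 and 0.15). Prkdc for heat under YAP/TAZ siRNA was -0.13 and not called under quantile normalization.

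Genes that mark S phase and G2/M phase, 20 in number, were followed beside the repair genes. With heat, 13 of 20 rose and 1 fell under YAP/TAZ siRNA, where 18.6% of all genes rose and 31.7% fell. Under quantile normalization these counts were 9 and 3 (21.6% and 22.7% of all genes). Under control siRNA, 0 rose and 17 fell, where 12.4% of all genes rose and 36.9% fell. The difference of the responses was positive for 18 and negative for 0 (24.6% and 13.4% of all genes), with a median of 0.74 against 0.43 for the repair genes. Under YAP/TAZ siRNA, 13 were higher and 1 was lower with heat (36.3% and 17.9% of all genes). Median-of-ratios scaling gave 6 and 4 of 20, near the 26.7% and 25% of all genes. Quantile normalization gave 8 and 4 (29.4% and 23.3% of all genes). Without heat, 0 were higher and 19 lower under YAP/TAZ siRNA (27.1% and 21.9% of all genes). Their summed level was 879 to 922 FPKM in heated and 750.3 to 771 FPKM in unheated YAP/TAZ siRNA cells, against 758 to 798 FPKM in heated and 1112 to 1139 FPKM in unheated control siRNA cells. Mcm5, a subunit of the replicative helicase, averaged 52.8 FPKM in heated and 39.8 FPKM in unheated YAP/TAZ siRNA cells, against 43.4 FPKM in heated and 63.5 FPKM in unheated control siRNA cells. Its difference of the heat responses was 0.94 ± 0.06 (adjusted p = 1.29e-05). The part of the cell cycle genes in the changes of the repair genes was not tested.

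**Figure D4:**
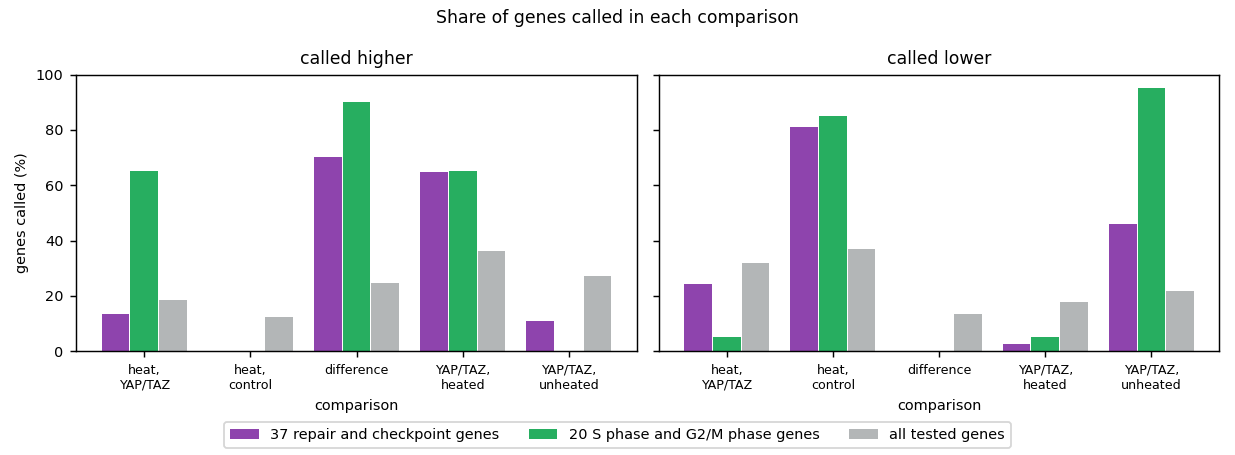
Share of genes (vertical axis, percent) called higher (left panel) and lower (right panel) in the 5 comparisons, for the 37 repair and checkpoint genes, 20 S phase and G2/M phase genes and all 12626 tested genes. The repair genes and the cell cycle genes both stand above all genes for falls with heat under control siRNA, for positive differences of the responses and for lower levels under YAP/TAZ siRNA without heat.

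Other genes of the same pathways were taken from 6 lists. Their counts with heat under control siRNA stand against 12.4% of all genes that rose and 36.9% that fell with the deposited values. The counts under other scalings stand against 19.6% and 24.6% (median of ratios) and 18.5% and 25.8% (quantile normalization). Counts of differences of the responses stand against 24.6% positive and 13.4% negative. Those under YAP/TAZ siRNA without heat stand against 27.1% higher and 21.9% lower. Of 29 further recombination and Fanconi genes, 1 rose and 12 fell (41.4%) with heat under control siRNA (3 and 8 under quantile normalization), and 12 differences of the responses were positive and 0 negative. Dna2, a nuclease of resection, averaged 5.15 FPKM in heated and 5.69 FPKM in unheated YAP/TAZ siRNA cells, against 3.95 FPKM in heated and 8.72 FPKM in unheated control siRNA cells, with a difference of 0.85 ± 0.09 (adjusted p = 0.000179). Mus81, a junction endonuclease, was 0.90 ± 0.08 higher under YAP/TAZ siRNA with heat (adjusted p = 2.16e-05), and Eme1, its partner, had a difference of the heat responses of 1.22 ± 0.16 (adjusted p = 0.000404). Of 16 end-joining and strand-break genes, 1 rose and 10 fell (62.5%) with heat under control siRNA. Under median-of-ratios scaling 7 fell, and under quantile normalization 6 did. The difference of the responses was positive for 8 and negative for 0. Parp1, which marks strand breaks with poly(ADP-ribose), averaged 40.4 FPKM in heated and 35.0 FPKM in unheated YAP/TAZ siRNA cells, against 48.2 FPKM in heated and 56.7 FPKM in unheated control siRNA cells. It was lower under YAP/TAZ siRNA in both conditions, with a change of -0.25 ± 0.05 with heat (adjusted p = 0.00166) and -0.68 ± 0.04 without (adjusted p = 2.30e-06). Paxx, a partner of Ku, was higher in both, by 0.71 ± 0.09 and 0.56 ± 0.08 (adjusted p = 0.000136 and 0.000284).

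Of 17 tested base excision and mismatch genes, 0 rose and 11 fell (64.7%) with heat under control siRNA. Under median-of-ratios scaling 9 fell, and under quantile normalization 8 did. The difference of the responses was positive for 7 and negative for 0. Apex1, the main endonuclease for sites without a base, averaged 30.8 FPKM in heated and 23.5 FPKM in unheated YAP/TAZ siRNA cells, against 30.3 FPKM in heated and 40.2 FPKM in unheated control siRNA cells. Its difference of the heat responses was 0.77 ± 0.08 (adjusted p = 0.000125). Of 20 nucleotide excision genes, 1 rose and 6 fell (30%) with heat under control siRNA, and their median difference of 0.09 was close to that of all genes. Of these 20, 5 rose and 4 fell under median-of-ratios scaling, and 4 rose and 4 fell under quantile normalization. Xpa, the damage verification factor, was higher under YAP/TAZ siRNA in both conditions, by 0.91 ± 0.11 with heat (adjusted p = 0.000126) and 0.84 ± 0.10 without (adjusted p = 0.000103), while Ddb1, of the ultraviolet damage sensor, was lower, with a change of -0.39 ± 0.05 (adjusted p = 0.000132) and -0.42 ± 0.04 (adjusted p = 4.08e-05). Of 8 translesion and tolerance genes, 1 rose and 2 fell (25%) with heat under control siRNA (1 and 1 under quantile normalization), and the median difference was -0.04. Polh, the polymerase that bypasses ultraviolet lesions, fell with a change of -0.73 ± 0.09 there (adjusted p = 0.000107).

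Of 22 damage signalling and checkpoint partners, 1 rose and 17 fell (77.3%) with heat under control siRNA (2 and 10 under quantile normalization), 9 differences were positive and 1 was negative, and under YAP/TAZ siRNA without heat 1 was higher and 14 were lower. H2afx, the histone variant that is phosphorylated around breaks, averaged 15.7 FPKM in heated and 26.8 FPKM in unheated YAP/TAZ siRNA cells, against 12.2 FPKM in heated and 46.5 FPKM in unheated control siRNA cells. It fell with heat with a change of -0.73 ± 0.06 under YAP/TAZ siRNA (adjusted p = 2.56e-05) and -1.85 ± 0.07 under control siRNA (adjusted p = 1.27e-07). Clspn, the adaptor through which ATR activates CHK1, had a difference of the heat responses of 1.03 ± 0.09 (adjusted p = 5.61e-05). Ppm1d, the phosphatase that ends the checkpoint, was the negative one, with -0.86 ± 0.08 (adjusted p = 5.99e-05). It averaged 5.34 FPKM in heated and 5.94 FPKM in unheated YAP/TAZ siRNA cells, against 10.1 FPKM in heated and 5.70 FPKM in unheated control siRNA cells. The heated control siRNA libraries thus held the highest mean of Ppm1d and the lowest of H2afx.

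Levels per length differed widely between the genes. Averaged over the 11 libraries, Xrcc5 was highest with 57.3 FPKM, followed by Msh6 with 21.8, Nbn with 19.5 and Rad50 with 19.3 FPKM, and Atr was lowest with 0.853 FPKM. Nbn and Rad50 lay within each other's spread over the libraries. Within the Ku pair, Xrcc5 was at 40.3 to 74.9 FPKM and Xrcc6 at 10.1 to 15.5 FPKM.

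**Figure D5:**
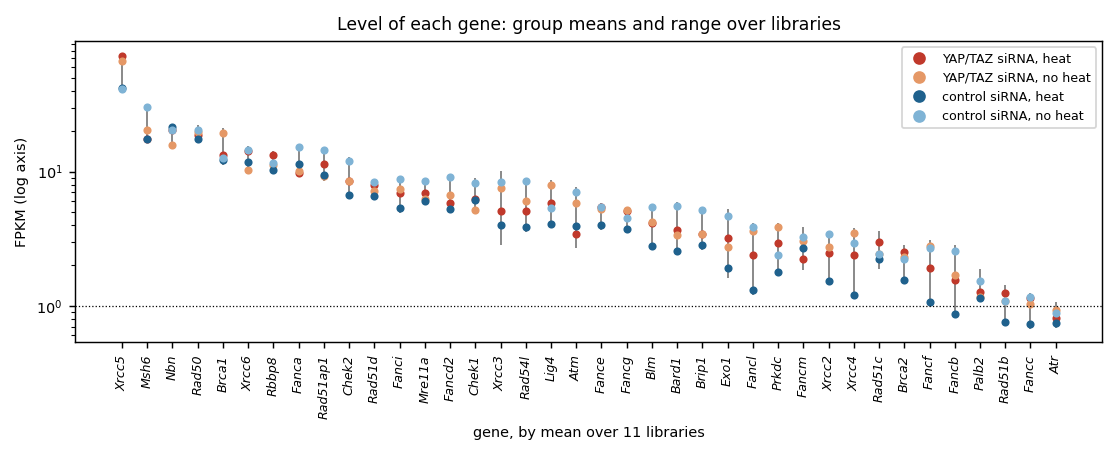
Level of each of the 38 genes (FPKM, log axis) as the mean of each of the 4 groups (points) and the range over the 11 libraries (grey line), in order of the mean over all libraries, with a dotted line at 1 FPKM. Xrcc5 stands alone at the top with its YAP/TAZ siRNA groups above its control siRNA groups, and only Atr lies below the dotted line in all 4 group means.

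Position in the genome limits some of these values. GENCODE M21 on GRCm38 gave 10 of the 38 genes exonic bases that overlap a tested gene, and for 5 the share was at least 10%, each with a gene on the opposite strand. These were Rad54l with Lrrc41 (15.4%), Fanca with Zfp276 (10.5%), Fancf with Gas2 (15%), Fanci with Polg (16%) and Fancl with Vrk2 (13.7%). The strandedness of the counting is not given in the sources used here, so reads of these pairs may not be told apart, and the values of these 5 genes are uncertain to that extent. Of the 38 genes, 13 (34.2%) had a protein-coding neighbour on the opposite strand that starts within 1000 bases and runs away from it, against 6.79% of 21924 protein-coding genes. Neighbours did not always move alike. Prkdc and Mcm4, whose starts lie 466 bases apart, were 0.52 and -0.54 under YAP/TAZ siRNA without heat, and Chek2 and Hscb, 202 bases apart, were -0.46 and 0.83. Brca1 and Nbr1, 194 bases apart, were both 0.57, and their changes with heat under YAP/TAZ siRNA were -0.50 and -0.43. Each of these 8 values was called. With heat under control siRNA, Xrcc3 and Zfyve21 were -0.94 and -1.05, Rad51ap1 and D6Wsu163e -0.58 and -0.68, and Atm and Npat -0.70 and -0.49. Rad54l and Pomgnt1 were -0.98 and -0.42 there, and Prkdc and Mcm4 -0.29 and -0.30. All of these were called too, and no pair was called in opposite directions in that comparison.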

How the data were processed

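RNA of 11 libraries was analysed from 1 gene table of FPKM values that the authors deposited, in which fragments are scaled to gene length and library size. Trimmomatic 0.36, HISAT2, SAMtools, StringTie and DESeq2 are named, with no role or order and with the build GRCm38, per the submitters' processing notes. For settings, annotation release and strandedness, the value is not given in the sources used here. Genes that reached 1 FPKM in 2 or more libraries were tested with limma 3.58.1 (R 4.3.3) on log2(FPKM + 1), with 4 group means and a mean-variance trend, which left 7 residual degrees of freedom. P-values were adjusted by Benjamini and Hochberg over 12626 genes, with a threshold of 0.05. The fit was tested on simulated data. Alternatives were pseudocount 0.1, no filter, a filter at 5 FPKM, median-of-ratios scaling, quantile normalization, no trend, fits of 2 groups, a replicate block and leaving out each library. The members, lists and tests were chosen with earlier results of these data known. Values in every library are given, by a written rule, for the called gene with the lowest p in each role, comparison and direction whose groups did not overlap (for the difference of the responses, the lowest p), and Brca2, Bard1 and Fancg sequences were added after values were seen. Of each partner list, up to 2 called genes with the lowest p per comparison and direction could be named. Python 3.11.15 was used for counts, motifs and plots. The promoter stretch of 1 gene is not reported here.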

Additional observations from a re-analysis of the deposited data

Results flagged for a closer look

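The heat responses under the 2 siRNAs differed, by a test of the difference itself, for 26 of the 37 tested genes. The differences (the response under YAP/TAZ siRNA minus that under control siRNA, in log2(FPKM + 1)) were all positive. Among the recombination genes they were 0.43 for Brca2, 0.34 for Rad51b, 0.43 for Rad51d, 0.84 for Rad51ap1, 0.77 for Rad54l, 0.71 for Xrcc2, 0.97 for Bard1, 0.69 for Brip1 and 0.73 for Blm. Among the Fanconi genes they were 0.34 for Fanca, 0.84 for Fancb, 0.40 for Fancc, 0.51 for Fancd2, 0.41 for Fance, 0.47 for Fancf, 0.54 for Fanci and 0.62 for Fancl. The resection and sensing genes had 1.10 for Exo1, 0.38 for Rbbp8, 0.55 for Mre11a and 0.29 for Nbn. Chek1 had 0.60, Chek2 0.77, Msh6 0.55, Xrcc4 0.42 and Xrcc6 0.72. Of all tested genes, 24.6% had a positive difference by the same test. All of these differences rest on the same 2 heated control siRNA libraries.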

How the results depend on the processing

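Counts of genes called were recomputed under each alternative. For heat under YAP/TAZ siRNA, the number higher was 8 under median-of-ratios scaling (24.2% of all genes) and 13 under quantile normalization (21.6%). The number lower was 5 with a filter at 5 FPKM, which left 25 of the listed genes to test. That filter left 8186 genes in all, of which 2546 were lower. For heat under control siRNA, 2 were higher under either scaling (19.6% and 18.5% of all genes) and 19 lower under quantile normalization (25.8%). For the difference of the responses, 1 was negative with the filter at 5 FPKM (937 of 8186 genes in all). Under median-of-ratios scaling 1 was negative (15.4% of all genes) and under quantile normalization 2 were (15.7%). For YAP/TAZ siRNA with heat, 14 of 25 were higher with the filter at 5 FPKM (3295 of 8186 genes in all). Under median-of-ratios scaling 3 were lower (25% of all genes) and under quantile normalization 2 were (23.3%). The difference of Xrcc5 turned to -0.23 under quantile normalization, and Msh6 under YAP/TAZ siRNA with heat to -0.13 under median-of-ratios scaling. Beyond the filter, the cause was not tested. Single libraries of the groups of 3 were left out in turn. Heat under YAP/TAZ siRNA then had 4 to 6 higher and 6 to 10 lower (1913 to 2386 and 3243 to 3926 of all genes). Heat under control siRNA had 0 higher and 25 to 30 lower (1365 to 1611 and 4136 to 4754). Differences were positive for 24 to 25 and negative for 0 to 1 (2577 to 3207 and 1428 to 1808). Under YAP/TAZ siRNA with heat, 21 to 24 were higher and 1 was lower (4128 to 4658 and 2028 to 2329 of all genes). Without heat, 4 to 5 were higher and 17 to 18 lower (2962 to 3442 and 2413 to 2823). Without either heated control siRNA library, fewer changes of that group were called, in the list and among all genes. The median change with heat under control siRNA was then -0.37 (without replicate 1) and -0.46 (without replicate 3), against -0.16 and -0.18 for all genes. Of 3418 values of single genes under alternatives, 3143 kept their sign and side of the threshold, 157 lost their call and 45 gained one. Another 73 changed sign, namely the 2 named above and 71 that were not called in either fit. Over 15 same-numbered pairs of libraries, deviations from the group means correlated at -0.11 to 0.13, against -0.18 to 0.16 for other pairs. With 2 or 3 libraries in a group, this cannot show whether a replicate number marked a batch. With a replicate block the counts were 6 higher and 9 lower, 0 and 29, 26 and 0, 23 and 1, and 4 and 18, in the order of comparisons used above. Among all 12626 genes they were 2452 and 4143, 1660 and 4803, 3385 and 1909, 4710 and 2429, and 3560 and 2939. Without either of the 2 heated control siRNA libraries, the one left is assumed to vary like the other groups.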
